A study of Mus musculus with 8 samples.

Results

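The guanylate-binding proteins (GBPs) are a family of large GTPases, and 10 of their mouse genes, Gbp2 to Gbp11, were followed here in Paneth cells, which sit in the crypts of the small intestine and secrete antimicrobial peptides. Members were found by matching the Ensembl gene IDs of the deposited count table to these symbols in the GENCODE mouse annotation. All 10 members were found among the 55414 IDs of the table. The mice were wild type (WT) and were injected with PBS, the vehicle control, or with TNF, a cytokine that drives inflammation. Paneth cells were purified on a cell sorter from the small intestine 3 h later. RNA-seq libraries numbered 4 for PBS (PBS-1 to PBS-4) and 4 for TNF (TNF-1 to TNF-4), and the groups differed in the injection alone. The age of the mice and the TNF dose are not stated in the labels.

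GBPs are made in many cell types when interferon or inflammatory cytokines are sensed. Interferon gamma acts through its receptor, JAK kinases and STAT factors, and then through the factor IRF1, on promoters that carry ISRE and GAS elements, while TNF acts mainly through NF-kB. The proteins assemble on bacteria and on the vacuoles of intracellular pathogens, where they act with a second GTPase family, the immunity-related GTPases (IRGs), and open the way for the inflammasome enzyme caspase-11 (gene Casp4). Some members, among them Gbp2 and Gbp5, are anchored to membranes by a prenyl group.

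The genes lay in clusters on 2 chromosomes (GENCODE, GRCm39). On the plus strand of chromosome 3 the order was Gbp5 (ENSMUSG00000105504, 142199739 to 142228105), Gbp7 (ENSMUSG00000040253, 142236044 to 142255910), Gbp3 (ENSMUSG00000028268, 142265731 to 142278979) and Gbp2 (ENSMUSG00000028270, 142326349 to 142343779). On the minus strand of chromosome 5 lay Gbp8 (ENSMUSG00000034438, 105162016 to 105287452), Gbp9 (ENSMUSG00000029298, 105224332 to 105287452), Gbp4 (ENSMUSG00000079363, 105263633 to 105287609), Gbp10 (ENSMUSG00000105096, 105362773 to 105412666), Gbp6 (ENSMUSG00000104713, 105418568 to 105443751) and Gbp11 (ENSMUSG00000092021, 105470908 to 105494338). Gbp11 is protein coding in GENCODE and a transcribed pseudogene in RefSeq. The spans of Gbp8, Gbp9 and Gbp4 overlap, and each pair of these genes shares 107 exonic bases.

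Promoter sequence was at hand for the chromosome 3 members, and is shown because all 4 of them rose after TNF. Each line gives the 250 bases before a RefSeq start site on the plus strand (GRCm38.p6), 5′ to 3′, with matches to the ISRE letters GAAANNGAAA, the GAS letters TTCNNNGAA or the NF-kB consensus in capitals. Matches were counted on both strands, and the ISRE matches and the NF-kB match below are printed as their reverse complement.
Gbp2 (chr3:142620413-142620662): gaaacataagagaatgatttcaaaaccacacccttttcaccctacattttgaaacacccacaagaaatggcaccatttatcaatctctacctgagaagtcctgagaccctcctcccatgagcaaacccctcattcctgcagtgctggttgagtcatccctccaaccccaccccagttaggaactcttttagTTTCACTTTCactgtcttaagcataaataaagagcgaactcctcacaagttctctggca
Gbp5 (chr3:142496684-142496933): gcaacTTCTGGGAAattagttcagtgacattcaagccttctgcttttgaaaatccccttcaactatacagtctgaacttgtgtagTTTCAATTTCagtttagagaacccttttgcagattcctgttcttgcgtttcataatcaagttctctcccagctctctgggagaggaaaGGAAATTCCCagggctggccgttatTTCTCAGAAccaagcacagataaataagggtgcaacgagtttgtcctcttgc
Gbp7 (chr3:142530086-142530335): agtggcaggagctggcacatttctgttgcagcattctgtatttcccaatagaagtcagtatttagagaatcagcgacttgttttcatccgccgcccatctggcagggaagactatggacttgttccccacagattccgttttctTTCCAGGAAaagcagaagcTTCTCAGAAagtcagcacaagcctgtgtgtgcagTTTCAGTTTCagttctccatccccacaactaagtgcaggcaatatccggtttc
Gbp3 (chr3:142559794-142560043): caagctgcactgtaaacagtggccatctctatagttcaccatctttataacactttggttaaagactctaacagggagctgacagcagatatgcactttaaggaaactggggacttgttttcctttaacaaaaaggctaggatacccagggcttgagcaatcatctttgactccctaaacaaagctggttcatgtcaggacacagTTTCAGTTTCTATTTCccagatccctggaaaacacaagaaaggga

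An ISRE match was present before a start site of all 4 chromosome 3 members. It stood at positions -59 to -50 in Gbp2, -53 to -44 in Gbp7 and -165 to -156 in Gbp5, counted from the start site as 1. Gbp3 held a pair of overlapping matches, at -45 to -36 and -39 to -30, and its other RefSeq window (chr3:142560106-142560405) held no match to any of the 3 motifs. The same letters occurred in 3.44% of all 32851 RefSeq windows of 300 bases (250 before and 50 after the start). GAS matches were present in Gbp5, at -245 to -237 and -52 to -44, and in Gbp7, at -106 to -98 and -87 to -79, against 8.30% of all windows. NF-kB consensus matches were present in Gbp5, at -77 to -68, and in Gbp2 just after the start site, at 8 to 17, against 8.46% of all windows. A match of letters is a description of the sequence and no measure of binding.

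The label of the sorted cells was set against marker genes first. The 9 Paneth markers (Lyz1, Defa24 and others) took 42.5 to 48.5% of all counts in PBS and 43.4 to 54.7% in TNF, and 2 of them were called higher. The immune list, whose cell types can also make GBPs, held 13 genes, of which 8 were at 0 in all libraries, among them Cd3e, Cd3g, Cd8a, Cd79a, Adgre1, Gzma and Gzmb. The immune genes with counts were Ptprc, Cd52, Itgam, Lyz2 and Csf1r. The summed level of this list was 9.89 to 14.6 normalized CPM in PBS and 14.0 to 71.4 in TNF, with the highest value in TNF-4. Normalized CPM are counts scaled to a common library total after correction by TMM factors, which set the bulk of genes level between libraries. Of the 8 stroma and endothelium markers, Col1a2 and Col3a1 were at 0, and the sum was at most 0.452 in PBS and 1.83 in TNF. In the immune list 1 marker was called higher, and in the stroma and endothelium list 1. Other lists moved too. The sum of 5 enteroendocrine markers was 10.3 to 13.2 in PBS and 30.3 to 61.0 in TNF (3 called higher), and that of 8 enterocyte markers was 269.9 to 303 in PBS and 119.7 to 138 in TNF (2 called lower). The sum of 7 goblet markers was 3681 to 5938 in PBS and 6391 to 7626 in TNF, without overlap (2 called higher and 2 lower). The sums of 6 stem cell markers (1893 to 2781 in PBS and 1708 to 2240 in TNF, 4 called lower) and of 3 tuft markers (10.5 to 24.4 in PBS and 6.64 to 49.1 in TNF, none called) overlapped. As a share of all counts, the goblet sums overlapped (0.399 to 0.746% in PBS and 0.342 to 0.787% in TNF). Stem sums on that scale did not (0.257 to 0.296% in PBS and 0.0907 to 0.248% in TNF). The enteroendocrine and enterocyte sums were apart on either scale. In normalized CPM the Paneth sums were 313190 to 462230 in PBS and 392370 to 1220200 in TNF, the highest in TNF-4. The part of other cell types in the Gbp values was not tested. Libraries held 23824717 to 32576077 counts. TNF-4 stood apart, with 51.4% of its counts on Defa genes (32.0 to 37.9% elsewhere) and a scaling factor of 0.448 (0.995 to 1.36 elsewhere), so normalized values in it are raised more than in any other library.

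Gbp transcripts were scarce in PBS and plentiful in TNF. The summed member counts were 67, 63, 49 and 226 in PBS-1 to PBS-4, and 4823, 5318, 5326 and 2244 in TNF-1 to TNF-4. As CPM of the library, without further scaling, the mean was 3.43 ± 2.35 for PBS and 164 ± 52.4 for TNF (SD, n = 4 each). The groups did not overlap, as the highest PBS library (PBS-4) stood at 6.94 and the lowest TNF library (TNF-4) at 86.4. In bulk RNA, more cells with Gbp transcripts and more transcripts per cell cannot be told apart.

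**Figure D1:**
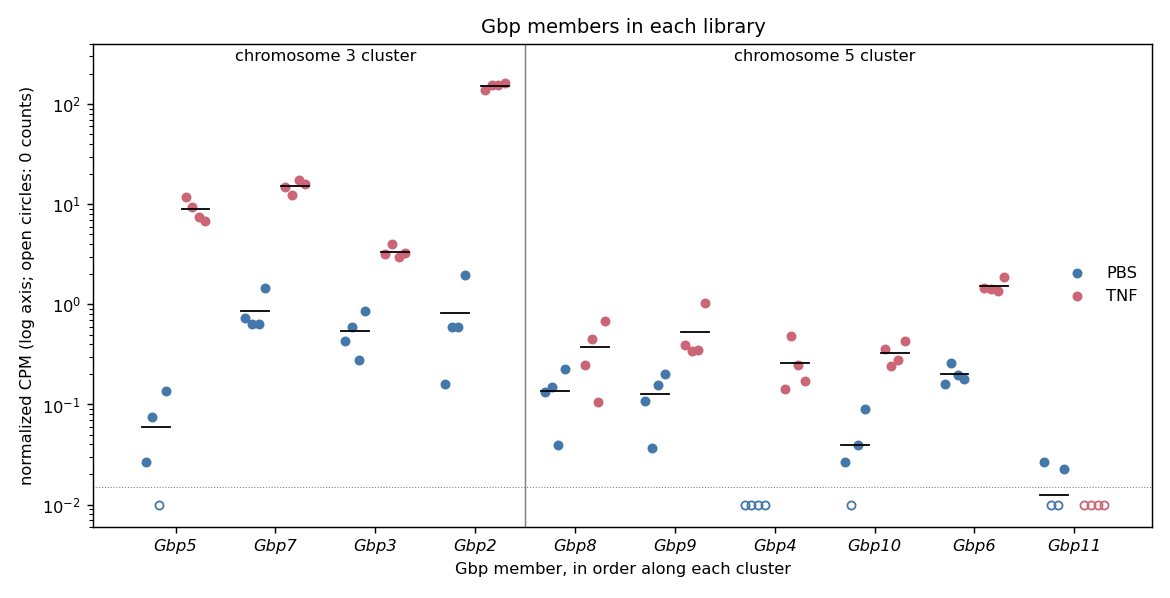
Normalized CPM (log axis) of the 10 Gbp members in each PBS (blue) and TNF (red) library, with black bars at group means and open circles for libraries with 0 counts. The TNF libraries lie above all PBS libraries for 8 of 10 members, the exceptions being Gbp8 and Gbp11.

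Gbp2 had the most counts of all members in TNF. They numbered 6, 16, 15 and 86 in PBS-1 to PBS-4, and 3913, 4483, 4467 and 1892 in TNF-1 to TNF-4. As normalized CPM, these were 0.161, 0.595, 0.591 and 1.95 in PBS and 139, 155, 157 and 162 in TNF. The TNF libraries were close together, whereas PBS-4 stood above the other PBS libraries. The mean went from 0.823 ± 0.776 to 153 ± 10.1 (SD, n = 4), and the log2 fold change was 7.46 (SE 0.52, edgeR quasi-likelihood test, adjusted p = 2.12e-06). It was the 15th largest rise among the 13368 genes tested. Without PBS-4 the log2 fold change of Gbp2 was 8.44, or 347-fold in place of 176-fold.

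Gbp5, a prenylated GBP that is known to promote inflammasome assembly in macrophages, was near absence in PBS. Its counts were 1, 2, 0 and 6 in PBS-1 to PBS-4, and 331, 274, 213 and 80 in TNF-1 to TNF-4. Normalized CPM were at most 0.136 in PBS and 11.7, 9.48, 7.47 and 6.87 in TNF. All TNF libraries were far above all PBS libraries. The mean rose from 0.0592 ± 0.0596 to 8.89 ± 2.21 (SD, n = 4), and the log2 fold change was 6.98 (SE 0.41, adjusted p = 6.78e-07, edgeR quasi-likelihood test), the 19th largest. It rests on 9 counts in PBS, and without PBS-4 it was 7.84, or 230-fold in place of 127-fold, while with a prior count of 2 it was 6.06, or 66.8-fold.

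Gbp7 had more counts than Gbp2 in all PBS libraries but PBS-4. It had 27, 17, 16 and 64 counts in PBS-1 to PBS-4 and 417, 360, 495 and 185 in TNF-1 to TNF-4. Its normalized CPM were 0.724, 0.632, 0.630 and 1.45 in PBS and 14.8, 12.5, 17.4 and 15.9 in TNF. PBS-4 was again the highest PBS library, and the groups did not overlap. The log2 fold change of Gbp7 was 4.08 (SE 0.26, adjusted p = 1.20e-06, edgeR quasi-likelihood test), or 16.9-fold.

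Gbp3 rose least among the chromosome 3 members. It had 16, 16, 7 and 38 counts in PBS-1 to PBS-4 and 89, 116, 84 and 38 in TNF-1 to TNF-4. The raw counts of PBS-4 and TNF-4 were thus equal, and the groups separated only after scaling by library. Normalized CPM were 0.429, 0.595, 0.276 and 0.860 in PBS and 3.16, 4.01, 2.95 and 3.26 in TNF. The log2 fold change was 2.58 (SE 0.31, adjusted p = 7.09e-05, edgeR quasi-likelihood test), or 6.0-fold, and with library size alone in place of TMM it was 2.18 (adjusted p = 0.00263, edgeR).

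On chromosome 5, Gbp6 had the highest mean normalized CPM in PBS and in TNF. It alone there passed the filter on low counts (filterByExpr, which asks for enough counts in as many libraries as a group has). It had 6, 7, 5 and 8 counts in PBS-1 to PBS-4 and 41, 41, 39 and 22 in TNF-1 to TNF-4. Normalized CPM were 0.161, 0.260, 0.197 and 0.181 in PBS and 1.45, 1.42, 1.37 and 1.89 in TNF. Here PBS-4 lay among the other PBS libraries. The log2 fold change was 2.92 (SE 0.29, adjusted p = 2.03e-05, edgeR quasi-likelihood test), or 7.55-fold.

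Reads of Gbp6 and Gbp10 may be hard to assign. Only 15.5% of the 75-base stretches of the Gbp6 canonical transcript and 20.1% of those of Gbp10 occur in no other gene's transcript, against 87.1 to 99.03% for the other 8 members. Most of the remainder is shared with Gm43302, an annotated gene whose span takes in Gbp10 and most of Gbp6 and which had 0 counts in all libraries, and 2940 of the 4507 Gbp6 stretches are also found in Gbp10. How the counting treated reads that fit several genes is not stated in the labels or methods, so the values of Gbp6 and Gbp10 are uncertain as single genes.

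The other chromosome 5 members had few counts. Gbp4 had 0 counts in all PBS libraries and 4, 14, 7 and 2 in TNF-1 to TNF-4. Over the PBS libraries together, 3 counts were taken as the limit that a count of 0 allows. The pooled TNF level of Gbp4, from 27 counts, was 12.4-fold this limit. Counting error and spread in TNF are not included in this value. Gbp10 had 1, 0, 1 and 4 counts in PBS-1 to PBS-4 and 10, 7, 8 and 5 in TNF-1 to TNF-4, which is 0 to 0.0905 normalized CPM in PBS and 0.242 to 0.429 in TNF.

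Gbp9 and Gbp8, which overlap, were both detected in every library. Gbp9 had 4, 1, 4 and 9 counts in PBS-1 to PBS-4 and 11, 10, 10 and 12 in TNF-1 to TNF-4, and its normalized CPM did not overlap (at most 0.204 in PBS, at least 0.346 in TNF). Gbp8 had 5, 4, 1 and 10 counts in PBS-1 to PBS-4 and 7, 13, 3 and 8 in TNF-1 to TNF-4, and its groups overlapped. Gbp11 had 1 count each in PBS-1 and PBS-4 and none elsewhere, so no difference was detectable at this depth.

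Across the family, 5 of 10 members (Gbp2, Gbp3, Gbp5, Gbp6 and Gbp7) passed the filter and all 5 were called higher in TNF. In the same fit, 43.0% of all genes tested were called, 23.4% higher and 19.6% lower in TNF. In 4 of the 5, all but Gbp7, at least 1 PBS library had 7 counts or fewer and the filter was passed through the TNF libraries, so this count of calls is a description and not a test of the family. Their median log2 fold change was 4.08, against 0.03 over all genes tested. They ranked 15, 19, 98, 220 and 261 among 13368 genes by log2 fold change. Normalized CPM of TNF lay wholly above PBS in 8 of 10 members, against 14.0% of the 23246 genes with any count. Among the 5 members that passed the filter this held for 5, against 22.4% of all genes tested. Without the filter on low counts, 8 of 10 members were called higher, against 13.0% of 23246 genes. This added Gbp4 (adjusted p = 0.000542), Gbp10 (adjusted p = 0.0107) and Gbp9 (adjusted p = 0.0271, edgeR quasi-likelihood test), while Gbp8 (log2 fold change 1.20, SE 0.67, adjusted p = 0.210) and Gbp11 (log2 fold change -2.12, SE 1.65, adjusted p = 0.395) were not called.

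The make-up of the Gbp counts moved towards Gbp2. Gbp2 took 8.96, 25.4, 30.6 and 38.1% of the member counts in PBS-1 to PBS-4, and 81.1, 84.3, 83.9 and 84.3% in TNF-1 to TNF-4. The PBS shares rest on 49 to 226 counts, and their 95% Clopper-Pearson intervals were wide, from 3.36 to 18.5% in PBS-1 and from 31.7 to 44.7% in PBS-4. These intervals cover counting error only. The mean share of Gbp2 was 25.8% ± 12.3 (SD) over the PBS libraries and 83.4% ± 1.53 over the TNF libraries. The chromosome 3 members together took 79.7% ± 4.82 of the member counts in PBS and 98.4% ± 0.391 in TNF.

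**Figure D2:**
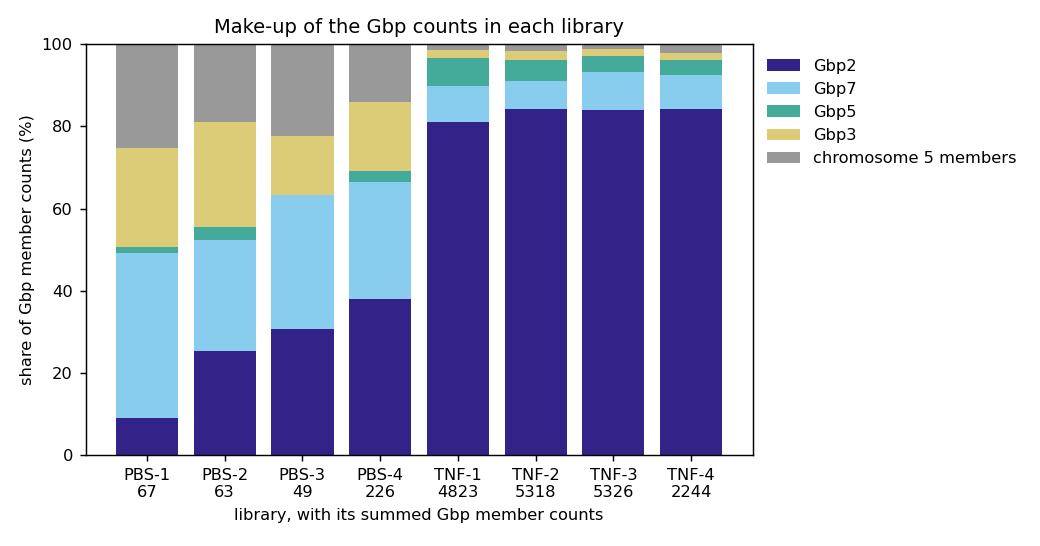
Share of the summed Gbp member counts (%) taken by each chromosome 3 member and by the 6 chromosome 5 members together, in each library, with the summed count under each bar. Gbp2 takes 8.96 to 38.1% in the PBS libraries and 81.1 to 84.3% in the TNF libraries.

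Levels were compared between members as normalized CPM per kb of merged exon length. In TNF the order of mean levels was Gbp2 at 59.9 ± 3.96, Gbp7 at 2.53 ± 0.345, Gbp5 at 1.22 ± 0.302, Gbp3 at 0.788 ± 0.109 and Gbp6 at 0.226 ± 0.0354 normalized CPM per kb (SD, n = 4). The ranges of Gbp5 and Gbp3 overlapped, although Gbp5 was the higher in 4 of 4 libraries, and the other neighbours in this order had separate ranges. With the length of the longest transcript in place of merged exons, Gbp5 had 2.37 (range 1.83 to 3.13) and Gbp7 2.60 (range 2.14 to 2.99) normalized CPM per kb, so their ranges overlapped and those of Gbp5 and Gbp3 (0.721 to 0.982) were apart. Gbp8, Gbp10, Gbp9 and Gbp4 followed at 0.0827 to 0.0269 normalized CPM per kb, with overlapping ranges, and Gbp11 was last at 0.

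In PBS the order was much flatter at the top. Gbp2 had a mean of 0.321 ± 0.303, Gbp7 of 0.143 ± 0.0660 and Gbp3 of 0.127 ± 0.0588 normalized CPM per kb (SD, n = 4), and these did not differ beyond their spread. A gap separated Gbp3 from Gbp8 and Gbp6, at 0.0304 and 0.0294, and another separated Gbp6 from the rest. With the longest transcript Gbp8 and Gbp6 changed places, and the latter gap was gone, as Gbp6 began at 0.0328 while Gbp9 reached 0.0360 and Gbp5 0.0361 normalized CPM per kb. Gbp5 was in place 7 of 10 in PBS and in place 3 of 10 in TNF.

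Whether members rose by unequal amounts was asked from the ratio of the counts of a pair of members within a library, which does not depend on scaling between libraries. Of the 10 pairs among the 5 members that passed the filter, 8 had ratios that differed between TNF and PBS (each exact permutation p = 0.0286, the smallest that 4 against 4 libraries can give, adjusted p = 0.0357 over 10 pairs, two-sided). The rises of Gbp2 and Gbp5 were larger than that of Gbp7, and the rise of Gbp7 was larger than those of Gbp6 and Gbp3, which orders the rises and not the levels. Which pairs could be compared was set by the filter, which 4 of the 5 members passed through the TNF libraries. The log2 ratio of Gbp2 to Gbp3 was -1.34, 0, 1.05 and 1.17 in PBS-1 to PBS-4 and 5.45, 5.27, 5.72 and 5.62 in TNF-1 to TNF-4, a difference of 5.30. In PBS the ratio thus lay on either side of 0, and in TNF Gbp2 was the more abundant in every library.

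Gbp5 was the less abundant of the pair with Gbp3 in all PBS libraries (mean log2 ratio -3.16 ± 0.630) and the more abundant in all TNF libraries (1.38 ± 0.357, SD, n = 4). Gbp2 and Gbp7 differed between the groups by 3.81, Gbp5 and Gbp7 by 3.05, Gbp7 and Gbp3 by 1.49 and Gbp7 and Gbp6 by 1.33 on the log2 scale. For Gbp2 against Gbp5 the difference was 0.75 (exact permutation test, p = 0.343, adjusted p = 0.381), and for Gbp6 against Gbp3 it was 0.16 (exact permutation test, p = 0.714, adjusted p = 0.714). The Gbp2 to Gbp5 ratio had an SD of 1.24 in PBS and 0.440 in TNF. Ratios in PBS rest on few counts of Gbp5, and 0.5 was added to each count.

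**Figure D3:**
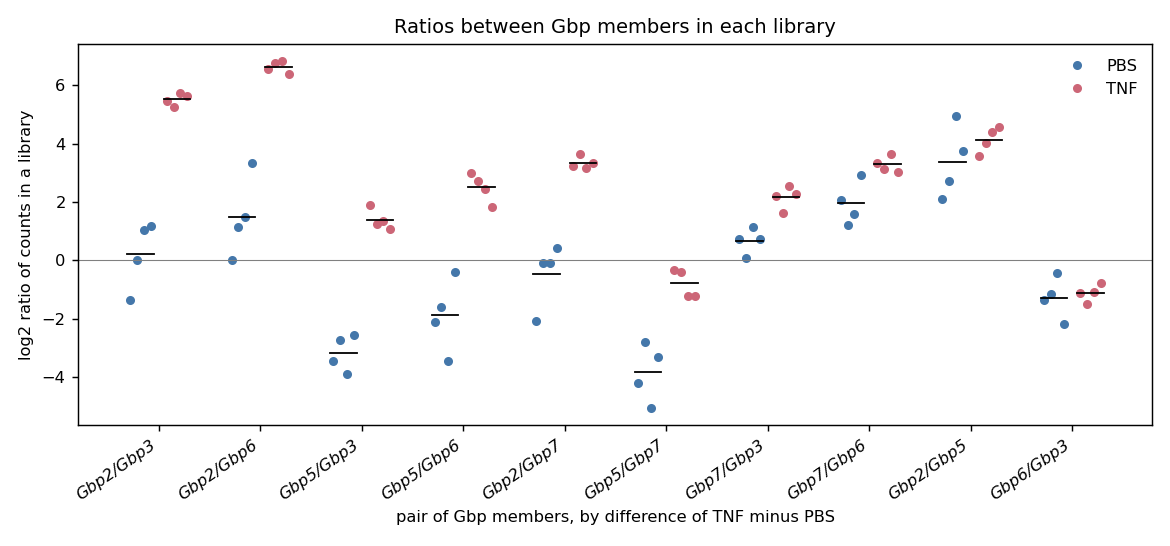
Log2 ratio of the counts of each pair of the 5 tested Gbp members within each PBS (blue) and TNF (red) library, with black bars at group means and pairs ordered by the difference of TNF minus PBS. PBS and TNF ratios are apart in 8 of 10 pairs and overlap for Gbp2/Gbp5 and Gbp6/Gbp3.

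PBS-4 was the highest PBS library for 7 of the 9 members with any PBS count, the exceptions being Gbp6 and Gbp11. It was also the highest for 29 of 63 tested genes of the pathway lists and for 37.0% of all genes tested.

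The genes beside the clusters were read in the same fit. On chromosome 3, Gbp2b, the mouse gene formerly called Gbp1, lies between Gbp3 and Gbp2 and had 0 counts in all libraries. Just past Gbp2, Kyat3 (31.6 kb away, a kynurenine aminotransferase) rose by 1.05 on the log2 scale (SE 0.23, edgeR, adjusted p = 0.00407), and Gtf2b (a general transcription factor) by 0.40 (SE 0.11, adjusted p = 0.0149, edgeR). Pkn2 beyond it, at 0.22, was not called (SE 0.09, adjusted p = 0.0805, edgeR), except without TNF-4 (adjusted p = 0.0362, edgeR). The Gtf2b call was lost without the filter (adjusted p = 0.0859, edgeR) and without TNF-1 (adjusted p = 0.0513, edgeR). On the side of Gbp5, Pdlim5 fell by 0.45 on the log2 scale (SE 0.10, adjusted p = 0.00537, edgeR), and Bmpr1b and Unc5c had 0 counts.

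The chromosome 5 cluster is flanked beyond Gbp11 by genes of the LRRC8 volume-regulated anion channel. Lrrc8b rose by 1.15 (SE 0.16, edgeR, adjusted p = 0.000217) and Lrrc8c by 2.54 (SE 0.56, adjusted p = 0.00404, edgeR), while Lrrc8d stood at -0.25 (SE 0.15, adjusted p = 0.216, edgeR). Lrrc8c was low, at 0.203 ± 0.113 normalized CPM in PBS and 1.18 ± 0.708 in TNF (SD, n = 4), and TNF-4 overlapped the PBS libraries. On the other side, Zfp951 and Thoc2l were not called and Abcg3 had 0 counts. Of the 12 flanking genes, 9 were tested, 4 were called higher and 1 lower, against 23.4% higher and 19.6% lower among all genes tested. With library size alone as scaling, the genes called beside or within the clusters, Mir6381 inside Gbp2 included, went from 6 to 2, as Kyat3, Gtf2b, Pdlim5 and Lrrc8b lost their call.

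**Figure D4:**
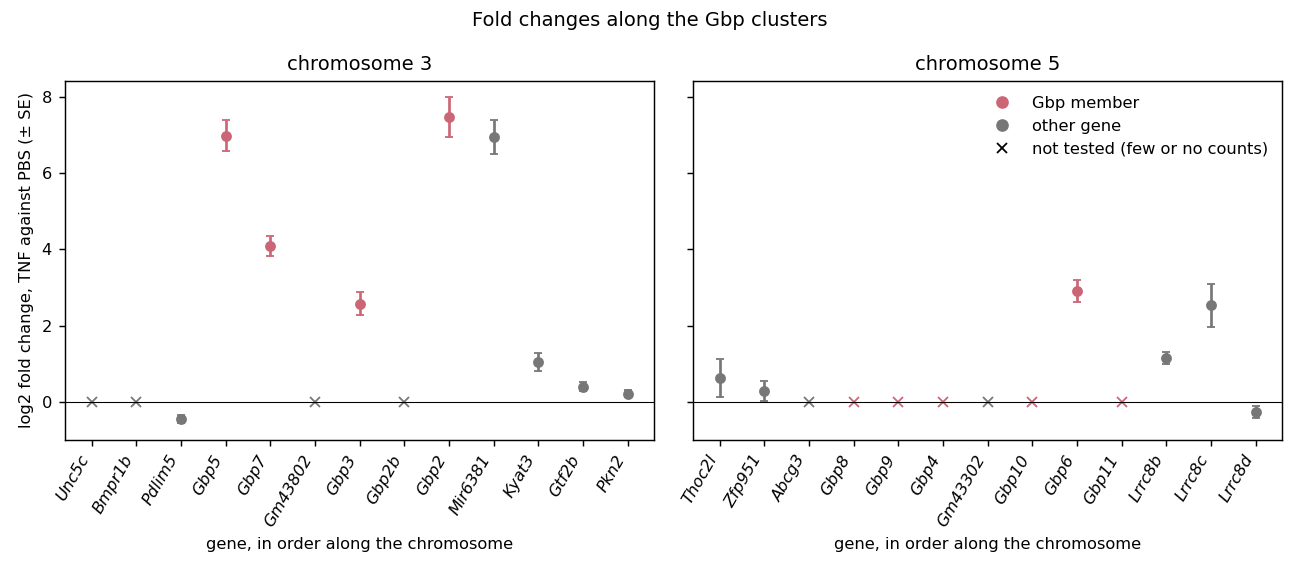
Log2 fold change of TNF against PBS with its SE for the Gbp members (red) and the other genes (grey) in order along both clusters; crosses at 0 mark genes that were not tested. Gbp5 (6.98) and Gbp2 (7.46) stand at the ends of the chromosome 3 cluster, and the flanking protein-coding genes lie between -0.45 and 2.54.

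The pathway around the GBPs was described by 9 lists with 78 genes, of which 63 were tested, 44 called higher and 2 lower, against 23.4% called higher and 19.6% lower among all genes tested. The counts of each list below are to be read against the same shares. The lists were chosen with earlier results of these data known, so these counts are a description and not a test of the lists. The upstream ligands were not seen, since all 8 interferon genes of the list, Ifng and Ifnb1 among them, had 0 counts in every library, which allows up to 0.126 CPM in the shallowest. Of 14 interferon receptors, JAK kinases and STATs, 11 were called higher and 1 lower (median log2 fold change 1.17). The interferon gamma receptor chains Ifngr1 and Ifngr2 rose by 1.00 (SE 0.11) and 1.60 (SE 0.12), and the transducer Stat2 by 1.73 (SE 0.15) on the log2 scale. The member of this list that fell was Tyk2, a JAK kinase of the type I interferon receptor, at -0.42, which was named after its value was seen.

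Among the interferon regulatory factors, 6 of 8 tested were called higher and 1 lower (median 1.14). Irf1, which is known to act on Gbp promoters, had the largest log2 fold change of the list, 2.35 (SE 0.14, adjusted p = 6.68e-07, edgeR), and its mean went from 28.2 ± 2.91 to 144 ± 19.3 normalized CPM (SD, n = 4). Of the other factors that the naming rule takes, Irf8 was at 1.49 (SE 0.19), Irf5 at 1.25 (SE 0.15) and Irf2, which is known as an antagonist of Irf1, at 0.86 (SE 0.13).

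All 5 NF-kB subunits were called higher (median 3.08), among them Nfkb2 at 3.27 (SE 0.14), Relb at 3.08 (SE 0.12) and Rela at 2.31 (SE 0.16), with Nfkb1 at 2.02 and Rel at 4.48 named after their values were seen. All 6 feedback inhibitors were called higher (median 3.91). Those with the smallest p were Nfkbia, which holds NF-kB in the cytoplasm, at 3.86 (SE 0.15), and Tnfaip3, a ubiquitin-editing inhibitor of NF-kB, at 3.96 (SE 0.19). The log2 fold changes of Gbp2 and Gbp5 were above those of every tested gene of the 9 lists, as values of this fit and with no test of the difference.

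IRG GTPases act with GBPs at pathogen vacuoles. All 7 IRG GTPases tested were called higher (median 2.45), including Irgm2 at 3.28 (SE 0.20), Igtp at 2.45 (SE 0.27) and Irgm1 at 2.25 (SE 0.16). The IRG paralogs Tgtp1 and Tgtp2 are close copies and uncertain as single genes. Of 6 inflammasome and pyroptosis genes tested, 4 were called higher and the others overlapped between groups (median 1.14). Casp4, the sensor of cytosolic lipopolysaccharide, moved from a mean of 3.78 ± 0.923 to 109 ± 24.3 normalized CPM (SD, n = 4) with a rise of 4.83 on the log2 scale (SE 0.23, edgeR, adjusted p = 2.19e-07), and Gsdmd, which forms the pyroptotic pore, rose by 2.33 (SE 0.21). The other called genes of this list were Casp1 at 1.20 and Nlrc4 at 1.07, named after their values were seen.

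Autophagy conjugation and prenylation are needed to place GBPs on membranes. Of 10 autophagy conjugation genes 3 were called higher (median 0.26), a share near the 23.4% of all genes tested, and these were Atg16l1 at 0.94 (SE 0.16) and Gabarapl1 at 0.60 (SE 0.13), and Map1lc3a at 0.65, named after its value was seen. Of 7 prenylation enzymes 2 were called higher (median 0.29), also near that share. Pggt1b, the catalytic subunit that adds geranylgeranyl groups, rose by 1.04 on the log2 scale (SE 0.19, edgeR, adjusted p = 0.00129), and Rabggta by 0.32 (SE 0.11, adjusted p = 0.0400, edgeR), whose call did not hold under most alternatives. With library size alone as scaling, 27 in place of 46 genes of the 9 lists were called, while the 5 members stayed called. Named genes that lost their call there were Ifngr1, Irf2, Irf5, Atg16l1, Gabarapl1, Pggt1b and Rabggta.

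**Figure D5:**
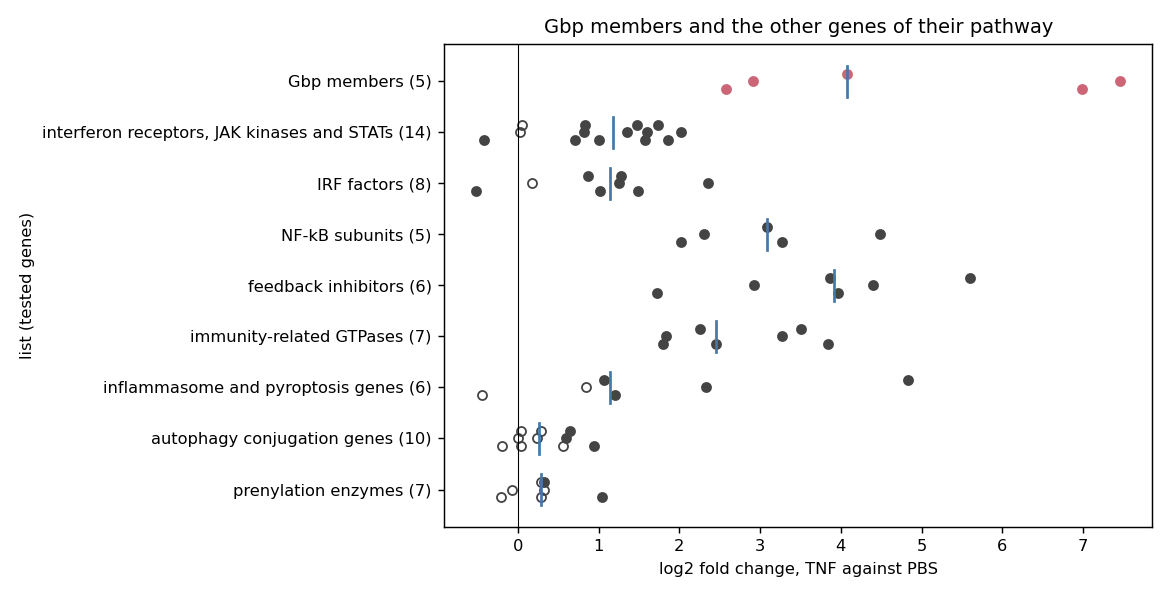
Log2 fold change of TNF against PBS for the 5 tested Gbp members (red) and the tested genes of 8 lists (black), filled where called and open where not, with a blue bar at each median. Medians run from 0.26 for autophagy conjugation genes to 3.91 for feedback inhibitors and 4.08 for the Gbp members.

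The genes whose pattern over the 8 libraries was closest to a member were found by the root mean square (RMS) difference of log2 normalized CPM centred on the PBS mean. For Gbp2 these were Cxcl10 (RMS 0.61) and Cxcl11 (0.72), chemokines of the CXCR3 receptor, and Tat (0.76), tyrosine aminotransferase. For Gbp6 they were Eif6 (RMS 0.15), a ribosome assembly factor, Isg15 (0.18), a ubiquitin-like interferon-induced protein, and Ccrl2 (0.18), an atypical chemokine receptor. These log2 values used a prior count of 2, which shrinks the changes of genes with few counts. In the edgeR fit a prior count of 2 lowered the log2 fold change of Gbp6 from 2.92 to 2.57. Which genes were closest without it was not tested. Cxcl10 had a mean of 36.9 ± 9.08 normalized CPM in TNF and 0.252 ± 0.391 in PBS (SD, n = 4).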

How the data were processed

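Raw RNA-seq counts per Ensembl gene ID for 4 PBS and 4 TNF libraries of sorted Paneth cells were deposited by the authors, with no normalization. The labels' processing notes name FastQC 0.12, STAR 2.7.10a, DESeq2 and the mm39 build, without their role, and the labels name the TruSeq Stranded mRNA kit. The counter, its annotation, its use of strand and its treatment of multi-mapping reads are not stated in the labels or the study's methods for this table. IDs were matched to GENCODE release 39 (54749 of 55414), and 2 IRG symbols found no ID.

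Members and gene lists were chosen with earlier results of these data known. Genes were tested in edgeR 4.0.16 (quasi-likelihood F test, R 4.3.3), with TMM scaling, filterByExpr and no covariate. P-values were adjusted over all genes tested (Benjamini-Hochberg) and called under 0.05. The series' text calls the libraries biological replicates. The lowest chi-square per degree of freedom between libraries of a group was 8.77, so none was a repeat sequencing of another. This value cannot show whether libraries shared a mouse or a pool of cells. Ratios between members were tested by exact permutation over all 70 assignments of the libraries (two-sided). Both tests were checked on simulated data. Promoter sequences came from RefSeq (GRCm38.p6). The table used here held Gbp2, Gbp3, Gbp5 and Gbp7 and no window for the other members.

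Named genes were all members, Gbp2b, genes beside or between members, up to 2 genes with the smallest p of each list, and a fixed set (with Ifng, Ifnb1, Ifngr1, Ifngr2, Irf1, Irf2, Irf8, Stat2, Rela, Casp4, Gsdmd, Irgm1, Irgm2 and Igtp). Also named were the 3 genes most like Gbp2 and Gbp6, the members of each cluster with the highest mean normalized CPM. Some genes that this rule or a list holds are not reported here. Alternatives were RLE scaling, library size alone, TMM without Defa genes, no filter beyond 1 count, a minimum of 1 CPM in 4 libraries, limma-voom (limma 3.58.1), DESeq2 1.42.0, the replicate number as a block, a prior count of 2, an adjusted p under 0.01, and leaving out each library.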

Additional observations from a re-analysis of the deposited data

Results flagged for a closer look

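Of 98 groups of 4 values screened, 14 held a library whose gap to the nearest other value took more of the range than Dixon's limit at the 95% level, where about 1 in 20 groups would by chance. PBS-4 was the highest PBS library for Gbp7 (1.448 normalized CPM, others 0.6304 to 0.7236), for the summed members (6.938 plain CPM, others 2.057 to 2.46), for Nfkb2 (26.29, others 19.33 to 20.25) and for Cxcl10 (0.8371, others 0.03718 to 0.0788). It was the lowest for Rabggta (7.194, others 8.077 to 8.147) and Gtf2b (15.52, others 18.05 to 18.44).

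TNF-4, the library with the highest Defa share, was the lowest TNF library for the summed members (86.35 plain CPM, others 183.1 to 198.7). In normalized CPM it was the highest for Gbp6 (1.889, others 1.368 to 1.455), Gbp9 (1.03, others 0.346 to 0.3903) and Thoc2l (11.42, others 2.768 to 4.152), and the lowest for Irgm2 (22.58, others 36.99 to 39.49) and Nfkb2 (185.6, others 211.7 to 215.4). TNF-1 had the lowest Gbp2 share of member counts in TNF (81.13%, others 83.87 to 84.31%) and the highest Pkn2 level (37.22, others 33.61 to 33.92). The causes were not tested.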

How the results depend on the processing

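All 84 alternative values of the 5 tested members kept their direction and their call, with log2 fold changes from 7.03 to 8.44 for Gbp2, 6.06 to 7.84 for Gbp5, 3.67 to 4.46 for Gbp7, 2.49 to 3.05 for Gbp6 and 2.18 to 2.90 for Gbp3. Of 645 values for 38 other named genes, 615 kept both, 23 lost the call, 2 gained it and 5 turned direction. With library size alone, 3182 in place of 5747 genes were called, 27 in place of 46 of the pathway lists and 2 in place of 6 beside the clusters, and the log2 fold changes of Rabggta (-0.065), Gtf2b (-0.0068), Pkn2 (-0.16), Thoc2l (-0.033) and Zfp951 (-0.12) turned below 0. The cause was not tested. Without the filter on low counts 8 members were called, since more genes were then tested, and with a minimum of 1 CPM in 4 libraries 4 of 10 were left and called. Leaving out each library in turn gave 4756 to 6922 genes called, 5 to 6 members, 45 to 48 pathway genes, 5 to 7 genes beside the clusters and 7 to 8 pairs of members. Gbp9 passed the filter and was called without PBS-2 or without PBS-3.

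Replicate numbers are shared by the groups, but libraries with the same number did not deviate together (correlations -0.14 to 0.066 over genes, with the best match at the same number for PBS-1 and PBS-2 only), so they were not taken as pairs. With the replicate number as a block 5087 genes and 5 members were called, and among the named genes Gtf2b (adjusted p = 0.0519, edgeR) and Rabggta (adjusted p = 0.0849, edgeR) were not, while Thoc2l was (adjusted p = 0.0454, edgeR). An exact sign-flip test of the member ratios, which pairs equal numbers, called 0 of 10 pairs, and cannot give a p under 1 in 8 with 4 pairs. A constant of 1 in place of 0.5 left 8 pairs, and log2 normalized CPM with a prior count of 2 gave 9.

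Depth limits the family in PBS, where all members together had 49 to 226 counts per library and 3 counts stood for 0.0921 to 0.126 CPM.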

Other observations

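Mir6381, a microRNA gene of 87 bases on the minus strand, lies within Gbp2 and covers 24 bases of its exons. It had 0, 0, 3 and 7 counts in PBS-1 to PBS-4 and 248, 263, 268 and 132 in TNF-1 to TNF-4, which is 5.87 to 6.98% of the Gbp2 counts of the same TNF libraries. Its log2 fold change was 6.94 (SE 0.45, adjusted p = 1.24e-06, edgeR quasi-likelihood test), beside 7.46 for Gbp2. Without PBS-4 it was 7.93, and with a prior count of 2 it was 6.08. Without a statement on strand in the counting, reads of Mir6381 and Gbp2 cannot be told apart.

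The place of TNF-4 among the TNF libraries differed between scales. Gbp2 had its lowest raw count there (1892) and its highest normalized CPM (162), while the Gbp2 share of member counts, which needs no scaling, was 84.3% in TNF-4 and 84.3% in TNF-2.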
